A study of Danio rerio with 9 samples.

Results

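RNA levels were compared in zebrafish embryos with an sf3b1 morpholino, with that morpholino and As2S2, and with a control morpholino. In 123 of the 19760 genes and assembled transcripts with a value in all 9 libraries, sf3b1 morphants stood apart from controls. With As2S2 these levels lay back on the control side. Of these 123 members, 92 were high and 31 were low in the sf3b1 morphants, and the table lists 21109 genes and transcripts in all. Members were chosen on FPKM, which counts fragments per length of transcript and size of library. The group mean of FPKM + 1 in sf3b1 MO had to be at least 2 times, or at most 0.5 times, the group means in both other groups, and all 3 sf3b1 MO libraries had to lie outside the range of the other 6. The targeted gene, smad7, jun, sp1, tal1, alas2, the pimr family and the embryonic hbae and hbbe globins were left out by name, and 4 rows that met the conditions were left out in this way. Both contrasts with sf3b1 MO were therefore used in the choice, and their values are given as a description. The difference between sf3b1 MO + As2S2 and control MO was not itself a condition, and it is the one tested. Both groups did enter the choice, each on the same side of sf3b1 MO, so for members this test is not independent of the choice.

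The 9 libraries are polyA-selected RNA from zebrafish embryos, labelled as trunk tissue, with 3 libraries in each of 3 groups. All embryos received a morpholino, an antisense oligonucleotide that blocks the splicing or translation of its target. The groups are sf3b1 MO + As2S2, with the sf3b1 morpholino and the arsenic sulfide As2S2, then sf3b1 MO, with that morpholino alone, and control MO, with a control morpholino. No group had the control morpholino with As2S2. A reversal of the morpholino change and an effect of As2S2 in any embryo thus cannot be told apart. Words such as back, return and overshoot describe levels only. Strain, embryo age, dose and number of embryos per library are not in the labels used here, and the labels do not say whether replicates are separate clutches. P-values below therefore reflect the spread among these libraries alone.

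The gene sf3b1 encodes the largest subunit of SF3B, the part of the U2 small nuclear ribonucleoprotein that holds the branch point of an intron at the start of splicing. Loss of its function in fish and mice disturbs many tissues, the blood lineage among them, and mutations in it are common in human myelodysplastic syndromes with ring sideroblasts. Arsenicals bind thiol groups of proteins and are known inducers of heat shock and metal-response genes.

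Total counts were 21942696 to 26197696 in sf3b1 MO and 25177824 to 28702980 in control MO, while no counts and hence no depth are known for sf3b1 MO + As2S2. The log2 FPKM of libraries correlated at 0.982 or more within a group and at 0.947 or less between groups. The targeted gene stood at 169 ± 2.27 FPKM in sf3b1 MO + As2S2, 108 ± 1.75 FPKM in sf3b1 MO and 171 ± 4.68 FPKM in control MO (SD, n = 3 each), whereas its counts were higher in sf3b1 MO. Relative to the library total they came to 870 ± 22.5 CPM in sf3b1 MO and 545 ± 7.13 CPM in control MO. FPKM and counts of sf3b1 thus went opposite ways, by a similar factor, between the same libraries. The reason was not tested, and FPKM is the only measure for sf3b1 MO + As2S2. A fall and return of sf3b1 RNA is therefore not read from its FPKM. A morpholino need not lower the RNA of its target, so neither measure checks the labels. The name sf3b1 MO stands throughout for the libraries labelled so. No member had counts and FPKM of opposite sign. Muscle transcripts were abundant but differed between groups: 27 skeletal muscle genes summed to 10764 to 10872 FPKM in sf3b1 MO + As2S2, 19059 to 19511 FPKM in sf3b1 MO and 43152 to 43900 FPKM in control MO. Eye transcripts were present as well, although the label names trunk. The 32 photoreceptor and lens genes summed to 2000 to 2058, 6391 to 6681 and 8002 to 8177 FPKM in the same groups. The part of these differences in the values below was not tested.

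**Figure D1:**
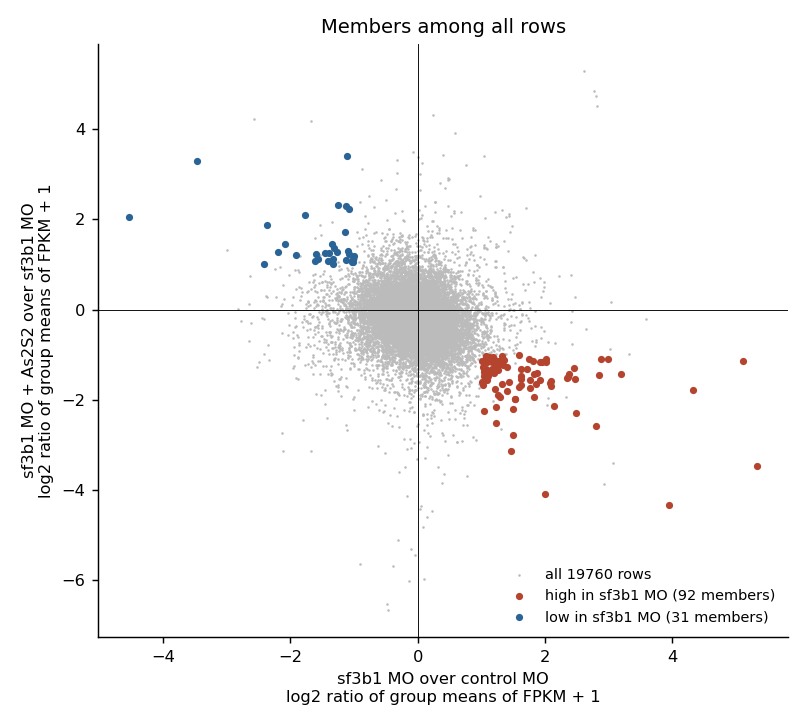
Each point is a gene or assembled transcript with a value in all 9 libraries. The horizontal axis is the log2 ratio of sf3b1 MO over control MO and the vertical axis that of sf3b1 MO + As2S2 over sf3b1 MO, both from group means of FPKM + 1. The 92 members high in sf3b1 MO lie at the lower right and the 31 low members at the upper left, each at least 1 log2 unit from both zero lines, which the choice of members fixes.

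The plot of the log2 ratios shows how far the members lie from the bulk of the genes. High members had a median log2 ratio of 1.42 for sf3b1 MO over control MO and of -1.40 for sf3b1 MO + As2S2 over sf3b1 MO. For low members these medians were -1.33 and 1.26. At least 4-fold in both contrasts were 5 high and 2 low members. Many members were of low level: 30 of the 92 high and 11 of the 31 low members stayed under 5 FPKM in all 3 group means. The mean level of the high members ran from 0 to 60.7 FPKM (median 2.24) in sf3b1 MO + As2S2, from 1.23 to 135 FPKM (median 7.90) in sf3b1 MO and from 0 to 31.6 FPKM (median 1.65) in control MO. For the low members the ranges were 1.36 to 553 FPKM (median 8.66), 0 to 237 FPKM (median 1.87) and 1.41 to 1031 FPKM (median 7.21) in the same groups. Ratios of FPKM + 1 understate the change of genes at such low levels.

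The limit of 2-fold, a log2 ratio of 1, cuts through a continuous range. Just inside it on the high side were the assembled transcripts MSTRG.46941.2 and MSTRG.15430.23, whose smaller log2 ratios were 1.01 for sf3b1 MO over control MO and -1.01 for sf3b1 MO + As2S2 over sf3b1 MO. Just outside was grik1a, a glutamate receptor subunit gene, at 2.46 ± 0.179 FPKM in sf3b1 MO + As2S2, 5.92 ± 0.392 FPKM in sf3b1 MO and 2.40 ± 0.144 FPKM in control MO (SD, n = 3 each), and so was zgc:194221, listed at 0 in control MO. On the low side, icn2 and MSTRG.38598.5 were just inside. ENSDARG00000078366 was just outside, and so was bhmt, a gene of homocysteine metabolism, at 236 ± 5.06, 107 ± 2.59 and 210 ± 9.33 FPKM in the same order of groups.

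Counts, which exist for sf3b1 MO and control MO, are a second form of the same reads and so no independent evidence. They differed at least 2-fold in the direction of the FPKM in 90 of 92 high and 30 of 31 low members. The log2 ratio from counts and that from FPKM were more than 0.5 apart in 8 high and 4 low members. EdgeR's quasi-likelihood test on counts called 51.1% of all genes for sf3b1 MO against control MO. There sf3b1 MO was higher at an adjusted p under 0.05 for 77 of 92 high members, where 25.2% of all genes tested were called higher, and lower for 27 of 31 low members, where 25.9% were called lower. Assembled transcripts made up 14 of the 15 high members and 4 of the 4 low members that were not called by counts. Limma called 61.8% of all genes for sf3b1 MO + As2S2 against sf3b1 MO, and As2S2 was lower in 89 of 92 high members, beside 44.5% of all genes, and higher in 30 of 31 low members, beside 17.3%. The choice of members fixed these counts, and nothing is read from them.

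Keratins and other genes of the outer skin layer made up 6 of the 31 low members, and all 6 belong to 1 list of 23 measured periderm and keratin genes. The most abundant was cyt1l, a type I keratin gene, at 538, 539 and 549 FPKM in sf3b1 MO + As2S2, 221, 230.3 and 220.1 FPKM in sf3b1 MO, and 1021, 1029.9 and 1042 FPKM in control MO. The 3 groups did not overlap, and the As2S2 libraries lay between the others. With As2S2 cyt1l remained below control MO (log2 difference -0.93, SE 0.03, limma adjusted p = 3.5e-09). Its relative cyt1 behaved likewise, with 551, 548 and 559.6 FPKM in sf3b1 MO + As2S2, 233, 239 and 239 FPKM in sf3b1 MO, and 889.5, 903 and 891 FPKM in control MO. No library of 1 group reached the range of another (As2S2 against control MO -0.69, SE 0.02, limma adjusted p = 1.2e-08). The keratin gene krt91 had 266, 259 and 264 FPKM in sf3b1 MO + As2S2, 123, 132 and 121 FPKM in sf3b1 MO, and 329.5, 334 and 333 FPKM in control MO. It came nearer to control MO than cyt1l or cyt1 did, and was still lower (-0.34, SE 0.03, limma adjusted p = 1.9e-05), although not after centring each library on its median gene (limma adjusted p = 0.3). In the order of genes in RefSeq's GRCz12tu assembly, cyt1l and cyt1 are neighbours with 0 coding genes between them and cyt1 and krt91 have 1 between them, on chromosome 19. Whether near-identical copies shared reads was not tested.

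A type II keratin gene of the surface epidermis, krt4, had 105, 112 and 111.5 FPKM in sf3b1 MO + As2S2, 49.7, 47.9 and 56.3 FPKM in sf3b1 MO, and 167, 156 and 155 FPKM in control MO. Each group again held a range of its own, with As2S2 below control MO (log2 difference -0.53, SE 0.06, limma adjusted p = 4e-05). The furthest from control MO among the skin members was icn2, ictacalcin 2, an S100-type calcium-binding protein of fish skin. It had 7.85, 9.41 and 8.73 FPKM in sf3b1 MO + As2S2, 3.37, 4.79 and 3.30 FPKM in sf3b1 MO, and 27.1, 25.0 and 21.7 FPKM in control MO (-1.40, SE 0.13, limma adjusted p = 9.9e-06). By contrast anxa1c, an annexin gene, had 10.18, 9.10 and 8.35 FPKM in sf3b1 MO + As2S2, 3.40, 5.23 and 3.14 FPKM in sf3b1 MO, and 9.34, 8.91 and 8.90 FPKM in control MO. Its As2S2 and control libraries overlapped (0.02, 95% interval -0.30 to 0.34, limma adjusted p = 0.91).

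Over the whole list, summed levels were 1715 to 1766 FPKM in sf3b1 MO + As2S2, 842 to 862 FPKM in sf3b1 MO and 3094 to 3121 FPKM in control MO. This sum and the counts below include the 6 members, whose changes against sf3b1 MO were fixed by the choice. The members cyt1l, cyt1 and krt91 were the most abundant genes of the list, so the sum largely follows them. Of 23 genes, none was higher and 20 were lower by counts in sf3b1 MO against control MO (edgeR). The median log2 difference was -1.38, against -0.02 over all genes, of which 25.9% were lower. With As2S2 against sf3b1 MO, 15 were higher and 3 lower (limma). The median was 0.41, against -0.20 over all genes, of which 17.3% were higher and 44.5% lower. With As2S2 against control MO, none was higher and 20 were lower (limma, median -0.80, against -0.25 over all genes, of which 48.5% were lower). Not every skin gene came back: krt5 stood at 47.9 ± 6.81 FPKM in sf3b1 MO + As2S2, 43.7 ± 6.99 FPKM in sf3b1 MO and 279.5 ± 10.03 FPKM in control MO (SD, n = 3 each). Another keratin gene, krt1-19d, was lowest with As2S2, at 5.52 ± 0.407, 16.4 ± 3.30 and 20.2 ± 0.682 FPKM in the same groups. Fewer skin cells and less keratin RNA per skin cell cannot be told apart in these bulk samples.

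**Figure D2:**
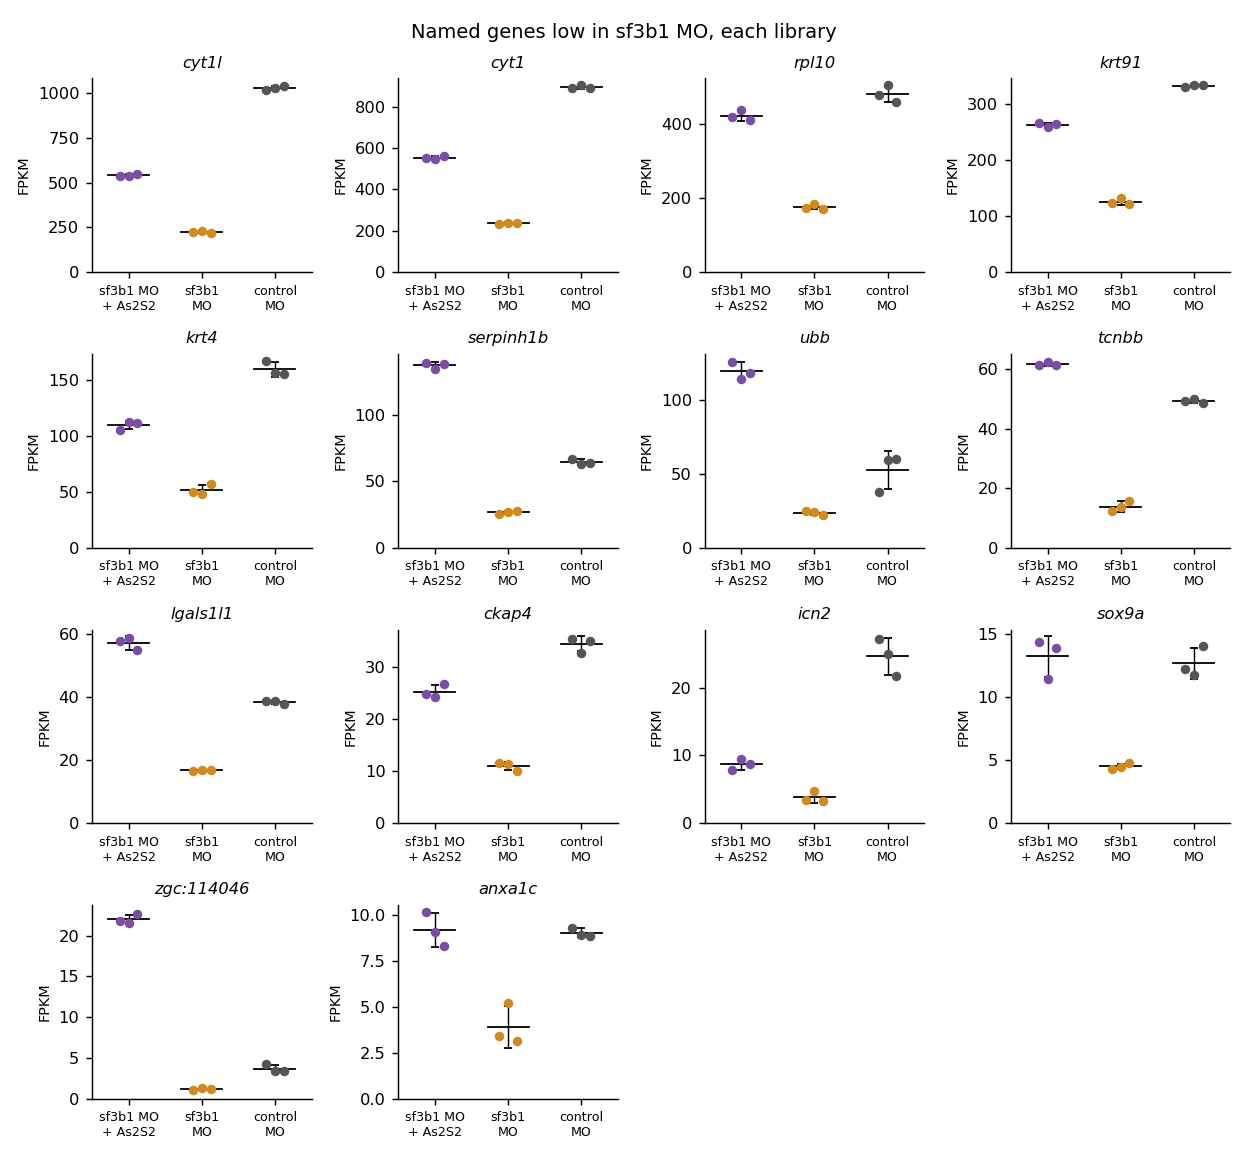
Each panel shows the FPKM of 1 named gene low in sf3b1 MO, with 1 point per library, a bar at the mean of 3 libraries and the SD as error bar. The vertical axes are linear, start at 0 and differ between panels. In cyt1l the As2S2 libraries (538 to 549 FPKM) lie between the others, in sox9a they overlap control MO, and in serpinh1b, ubb and zgc:114046 they lie above both.

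The low member of the cartilage list was sox9a, which encodes a transcription factor required for cartilage formation. It had 14.4, 11.4 and 13.9 FPKM in sf3b1 MO + As2S2, 4.32, 4.46 and 4.74 FPKM in sf3b1 MO, and 12.2, 11.7 and 14.0 FPKM in control MO. The As2S2 and control libraries overlapped, and the difference was 0.05 (95% interval -0.16 to 0.27, limma adjusted p = 0.63). After centring each library it was called higher than control MO (0.35, limma adjusted p = 0.0089). Its paralog sox9b had 21.7 ± 0.845 FPKM in sf3b1 MO + As2S2, 12.95 ± 0.363 FPKM in sf3b1 MO and 16.3 ± 0.415 FPKM in control MO (SD, n = 3 each). Most genes of the same list did not come back. Of its 19 measured genes, 17 were lower by counts in sf3b1 MO against control MO (edgeR), beside 25.9% of all genes. With As2S2, 4 of 17 tested were higher and 11 lower than sf3b1 MO (limma), beside 17.3% and 44.5% of all genes. Against control MO, 1 was higher and 15 lower (limma), beside 19.5% and 48.5% of all genes. Part of the way back were col2a1b, at 73.25 ± 2.26, 52.5 ± 2.35 and 95.4 ± 0.522 FPKM in sf3b1 MO + As2S2, sf3b1 MO and control MO, and the collagen gene col9a1b. In contrast, col2a1a, the main cartilage collagen, stood at 63.9 ± 3.73 FPKM in sf3b1 MO + As2S2, 94.0 ± 4.48 FPKM in sf3b1 MO and 191 ± 3.102 FPKM in control MO.

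The collagen chaperone gene serpinh1b, which encodes Hsp47 of the endoplasmic reticulum, had 140, 134.5 and 139 FPKM in sf3b1 MO + As2S2, 25.6, 26.8 and 27.7 FPKM in sf3b1 MO, and 66.9, 63.2 and 63.7 FPKM in control MO. Every As2S2 library of serpinh1b lay above every control library (log2 difference 1.08, SE 0.04, limma adjusted p = 2.1e-08). Heat shock genes as a list were high with As2S2. Of 27 measured genes, 23 were higher than control MO and 1 lower (limma), beside 19.5% and 48.5% of all genes tested. The 1 member among them is serpinh1b. By counts in sf3b1 MO against control MO, 10 genes of this list were higher and 8 lower (edgeR), beside 25.2% and 25.9% of all genes. A co-chaperone gene, bag3, had the shape of serpinh1b, at 19.1 ± 1.295 FPKM in sf3b1 MO + As2S2, 2.86 ± 0.492 FPKM in sf3b1 MO and 6.24 ± 0.322 FPKM in control MO, and so had the chaperone gene hsp90aa1.1, at 68.0 ± 3.01, 11.1 ± 0.885 and 19.6 ± 0.888 FPKM. The inducible chaperone gene hsp70l was not low in sf3b1 MO, at 4084 ± 38.1 FPKM in sf3b1 MO + As2S2, 104 ± 2.61 FPKM in sf3b1 MO and 16.1 ± 0.480 FPKM in control MO (SD, n = 3 each). A second gene of the endoplasmic reticulum, ckap4, a membrane protein, had 24.8, 24.3 and 26.75 FPKM in sf3b1 MO + As2S2, 11.5, 11.4 and 10.1 FPKM in sf3b1 MO, and 35.4, 32.8 and 35.1 FPKM in control MO. Here the As2S2 libraries stayed between the other groups (-0.43, SE 0.06, limma adjusted p = 0.0002). After centring, ckap4 was no longer called.

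In protein turnover and synthesis, the polyubiquitin gene ubb overshot like serpinh1b. It had 126, 114 and 118 FPKM in sf3b1 MO + As2S2, 24.6, 24.2 and 21.8 FPKM in sf3b1 MO, and 37.6, 59.6 and 60.1 FPKM in control MO. All As2S2 libraries lay above all control libraries (log2 difference 1.21, SE 0.15, limma adjusted p = 9.4e-05). In FPKM 1 control library was well below the other pair, but its count was not: control counts were 2363, 2056 and 2116 in the same order. By counts ubb was only 0.65 log2 units lower in sf3b1 MO than in control MO, against 1.12 by FPKM. The ribosomal protein gene rpl10 had 418, 438 and 410.3 FPKM in sf3b1 MO + As2S2, 174, 183 and 170.0 FPKM in sf3b1 MO, and 479, 506.5 and 461 FPKM in control MO. With As2S2 it was just below control MO, without overlap (-0.19, SE 0.04, limma adjusted p = 0.0035), and this turned to 0.10 after centring each library.

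With As2S2, tcnbb, lgals1l1 and zgc:114046 went above the control level. A vitamin B12 carrier gene of the transcobalamin family, tcnbb, had 61.6, 62.7 and 61.4 FPKM in sf3b1 MO + As2S2, 12.2, 13.6 and 15.7 FPKM in sf3b1 MO, and 49.5, 49.98 and 48.8 FPKM in control MO. As2S2 libraries were above control libraries without overlap (log2 difference 0.32, SE 0.07, limma adjusted p = 0.0037). The galectin gene lgals1l1, for a galactose-binding lectin, had 57.7, 58.7 and 54.7 FPKM in sf3b1 MO + As2S2, 16.65, 16.75 and 16.75 FPKM in sf3b1 MO, and 38.5, 38.6 and 37.65 FPKM in control MO (0.56, SE 0.04, limma adjusted p = 1.2e-06). Its replicates were tight in every group and no groups overlapped. The largest overshoot among the low members was in zgc:114046, a gene of unnamed function, with 21.8, 21.6 and 22.6 FPKM in sf3b1 MO + As2S2, 1.06, 1.26 and 1.16 FPKM in sf3b1 MO, and 4.22, 3.40 and 3.43 FPKM in control MO (2.30, SE 0.08, limma adjusted p = 2.1e-08). Every As2S2 library was far above every control library.

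Among low members singled out after their values were seen, ncapg, a condensin subunit gene of mitotic chromosomes, also overshot, at 4.34 ± 0.244 FPKM in sf3b1 MO + As2S2, 0.144 ± 0.0525 FPKM in sf3b1 MO and 1.41 ± 0.0507 FPKM in control MO (SD, n = 3 each; log2 difference of As2S2 and control MO 1.15, limma adjusted p = 1.6e-06). None of 39 measured cell cycle genes of a separate list was a member. Yet 25 of them were lower by counts in sf3b1 MO than in control MO and 3 higher (edgeR). Over all genes, 25.9% were lower and 25.2% higher. With As2S2, 28 of 38 tested were higher than sf3b1 MO and none was lower (limma), beside 17.3% and 44.5% of all genes. Summed, the list stood at 1136 to 1194 FPKM in sf3b1 MO + As2S2, 749.8 to 770.1 FPKM in sf3b1 MO and 881 to 891 FPKM in control MO. The list's median log2 difference was -0.40 for sf3b1 MO against control MO, and 0.80 for sf3b1 MO + As2S2 against sf3b1 MO, against -0.02 and -0.20 over all genes. The neighbours ponzr3 and ponzr4, also chosen after their values were seen and with 0 coding genes between them in GRCz12tu, were both low in sf3b1 MO. For ponzr3 the levels were 4.09 ± 0.953, 0.858 ± 0.120 and 6.88 ± 1.56 FPKM in sf3b1 MO + As2S2, sf3b1 MO and control MO.

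Of the 92 high members, 54 (58.7%) were assembled transcripts with no Ensembl identifier, against 14.0% of all 19760 rows and 7 of the 31 low members (22.6%). The remaining 38 were annotated genes, and genes of iron storage and metal binding were among the most abundant of them. Ferritin heavy chains form the shell that stores iron, and 2 like genes, fthl31 and fthl28, were members. In fthl31 the values were 25.6, 29.6 and 30.5 FPKM in sf3b1 MO + As2S2, 66.8, 71.4 and 57.7 FPKM in sf3b1 MO, and 16.2, 14.6 and 17.8 FPKM in control MO. With As2S2 it came only part of the way down and remained above control MO without overlap (log2 difference 0.78, SE 0.10, limma adjusted p = 8.2e-05). In fthl28 the values were 17.45, 20.6 and 14.2 FPKM in sf3b1 MO + As2S2, 38.25, 42.5 and 44.9 FPKM in sf3b1 MO, and 18.8, 17.3 and 15.85 FPKM in control MO. Here the As2S2 and control libraries overlapped, with a difference of 0.00 (95% interval -0.28 to 0.27, limma adjusted p = 0.98), and of 0.29 after centring, not called. These genes have 1 coding gene between them on chromosome 3 in GRCz12tu, and whether such similar genes shared reads was not tested. The related fthl27, no member, had 236.5 ± 6.82 FPKM in sf3b1 MO + As2S2, 294.5 ± 17.9 FPKM in sf3b1 MO and 148 ± 2.73 FPKM in control MO (SD, n = 3 each).

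The metallothionein gene mt2, whose product binds zinc and other metals, had 10.9, 13.8 and 9.52 FPKM in sf3b1 MO + As2S2, 45.2, 27.25 and 33.7 FPKM in sf3b1 MO, and 8.05, 8.52 and 12.5 FPKM in control MO. The As2S2 libraries overlapped control MO, and the difference was 0.22 (95% interval -0.25 to 0.69, limma adjusted p = 0.36). A methionine sulfoxide reductase gene, msrb1b, had 4.74, 4.33 and 5.17 FPKM in sf3b1 MO + As2S2, 13.2, 10.9 and 9.56 FPKM in sf3b1 MO, and 0.616, 0.967 and 0.0469 FPKM in control MO. It remained well above control MO (1.94, SE 0.21, limma adjusted p = 3.1e-05). Its paralog msrb1a was at 0.530 ± 0.0902, 1.93 ± 0.0997 and 2.49 ± 0.263 FPKM in sf3b1 MO + As2S2, sf3b1 MO and control MO, with no call between sf3b1 MO and control MO by counts (edgeR adjusted p = 0.29). The peroxiredoxin-like gene prxl2b had 3.23, 2.20 and 2.82 FPKM in sf3b1 MO + As2S2, 17.2, 16.9 and 14.5 FPKM in sf3b1 MO, and 4.62, 6.11 and 4.57 FPKM in control MO. With As2S2 it fell below control MO (-0.70, SE 0.13, limma adjusted p = 0.0011). Across 28 measured oxidative and metal stress genes, 12 were higher and 5 lower by counts in sf3b1 MO against control MO (edgeR), and with As2S2 3 were higher and 19 lower than sf3b1 MO, and 6 higher and 14 lower than control MO (limma). The shares against control MO are near the 19.5% and 48.5% of all genes. Against sf3b1 MO, 17.3% of all genes were higher and 44.5% lower with As2S2 (limma). By counts in sf3b1 MO against control MO, 25.2% of all genes were higher and 25.9% lower (edgeR).

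**Figure D3:**
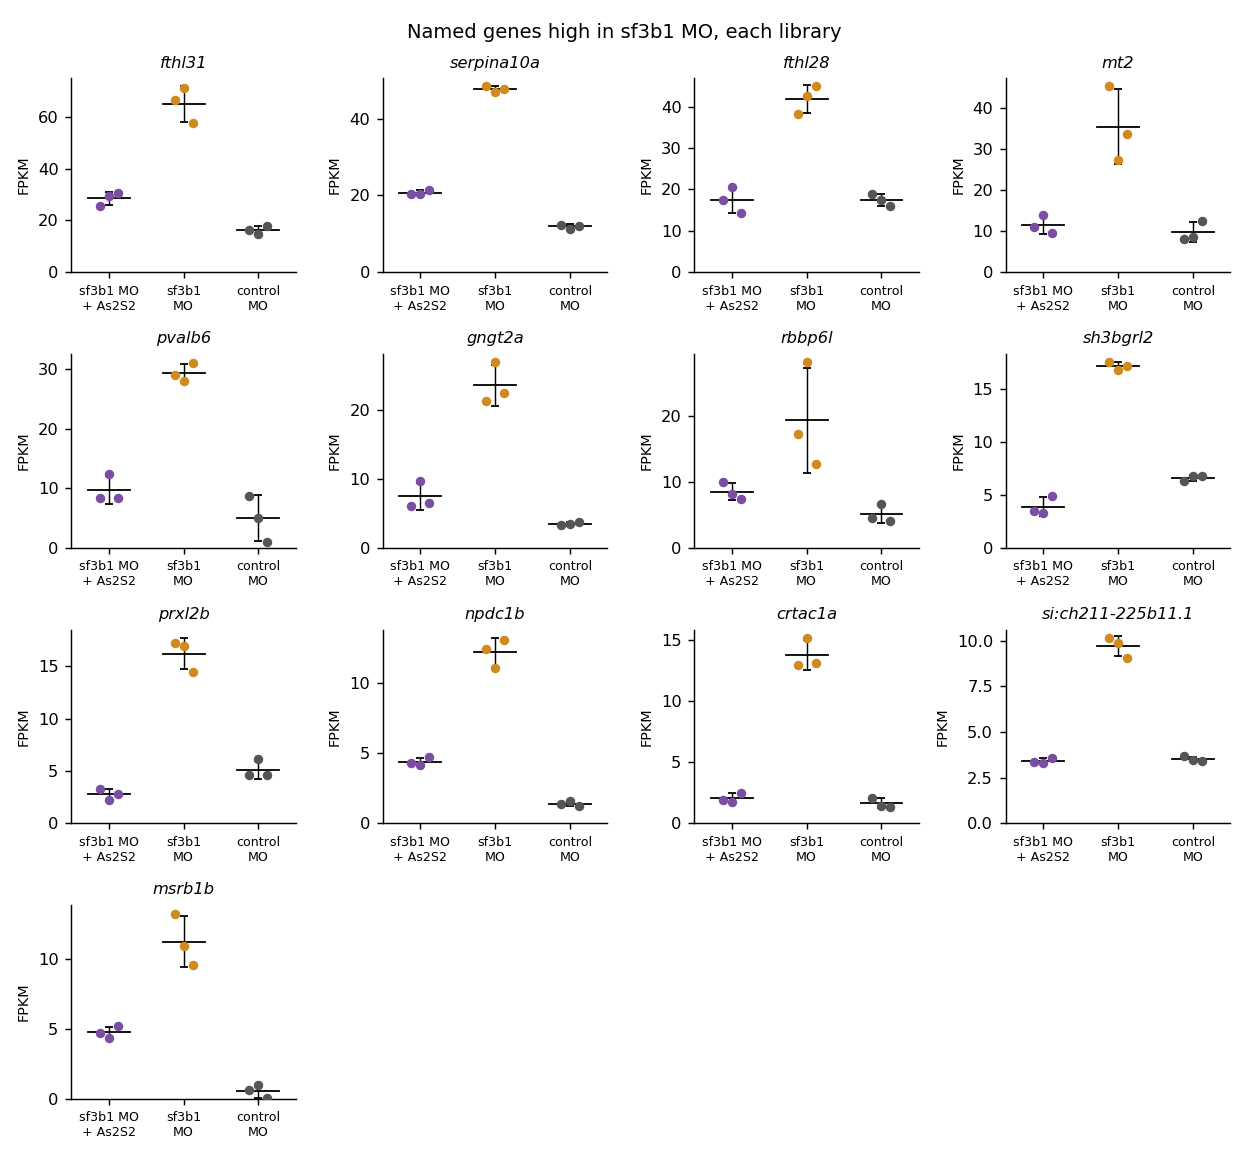
Each panel shows the FPKM of 1 named gene high in sf3b1 MO, with 1 point per library, a bar at the mean of 3 libraries and the SD as error bar. The vertical axes are linear, start at 0 and differ between panels. In fthl28 and mt2 the As2S2 libraries overlap control MO, in fthl31, serpina10a, gngt2a, npdc1b and msrb1b they lie above it, and in prxl2b and sh3bgrl2 below it.

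Of the photoreceptor and lens list 1 gene was a high member. The cone transducin gamma subunit gene gngt2a had 6.11, 9.71 and 6.52 FPKM in sf3b1 MO + As2S2, 21.2, 26.9 and 22.5 FPKM in sf3b1 MO, and 3.21, 3.36 and 3.70 FPKM in control MO. The As2S2 libraries stayed above control MO (log2 difference 0.91, SE 0.15, limma adjusted p = 0.0005). Its paralog gngt2b followed another course, at 4.62 ± 1.24 FPKM in sf3b1 MO + As2S2, 352 ± 22.0 FPKM in sf3b1 MO and 328.5 ± 18.2 FPKM in control MO (SD, n = 3 each). So did most of the list. Of 31 photoreceptor and lens genes tested, 27 were lower with As2S2 than in control MO and 3 were higher (limma). Among the 3 was gngt2a. Over all genes tested, 48.5% were lower and 19.5% higher. A parvalbumin gene, pvalb6, had 8.41, 12.4 and 8.33 FPKM in sf3b1 MO + As2S2, 28.95, 28.1 and 31.1 FPKM in sf3b1 MO, and 8.75, 4.95 and 1.01 FPKM in control MO. Its control libraries were spread widely and overlapped the As2S2 libraries (1.11, SE 0.46, limma adjusted p = 0.057). After centring it was called above control MO (1.41, limma adjusted p = 0.025). Without replicate 1 of control MO the difference was 1.61 and called, and without replicate 3 it was 0.47 and not called. Singled out after its values were seen, parapinopsinb, an opsin of the pineal organ, had 3.50 ± 0.0976 FPKM in sf3b1 MO + As2S2, 8.45 ± 0.420 FPKM in sf3b1 MO and 3.30 ± 0.339 FPKM in control MO.

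The blood protease inhibitor gene serpina10a, related to the human inhibitor that acts with protein Z, had 20.3, 20.45 and 21.4 FPKM in sf3b1 MO + As2S2, 48.6, 47.0 and 47.7 FPKM in sf3b1 MO, and 12.3, 11.2 and 12.1 FPKM in control MO. The 3 groups did not overlap, and As2S2 remained above control MO (log2 difference 0.75, SE 0.05, limma adjusted p = 7.2e-07). A secreted matrix protein gene, crtac1a, had 1.91, 1.70 and 2.47 FPKM in sf3b1 MO + As2S2, 13.0, 15.1 and 13.1 FPKM in sf3b1 MO, and 2.08, 1.41 and 1.35 FPKM in control MO. Its As2S2 and control libraries overlapped (0.22, 95% interval -0.09 to 0.52, limma adjusted p = 0.18). After centring it was called above control MO (0.51, limma adjusted p = 0.0089), and without replicate 1 of control MO it was called as well (0.34). The gene npdc1b, whose mammalian relative is expressed in nerve cells that stop dividing, had 4.32, 4.14 and 4.69 FPKM in sf3b1 MO + As2S2, 12.4, 11.03 and 13.0 FPKM in sf3b1 MO, and 1.37, 1.55 and 1.26 FPKM in control MO. All As2S2 libraries lay above all control libraries (1.17, SE 0.09, limma adjusted p = 2.4e-06).

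The small thioredoxin-fold gene sh3bgrl2 had 3.48, 3.22 and 4.85 FPKM in sf3b1 MO + As2S2, 17.5, 16.75 and 17.15 FPKM in sf3b1 MO, and 6.26, 6.74 and 6.78 FPKM in control MO. It was lower with As2S2 than in control MO, without overlap (log2 difference -0.66, SE 0.11, limma adjusted p = 0.00055). For rbbp6l the sf3b1 MO libraries differed widely, at 17.4, 28.3 and 12.7 FPKM, beside 9.96, 8.18 and 7.48 FPKM in sf3b1 MO + As2S2 and 4.50, 6.63 and 4.12 FPKM in control MO (As2S2 against control MO 0.66, SE 0.26, limma adjusted p = 0.044). Leaving out 1 library ended that call in 6 of 9 cases. Counts of rbbp6l in the sf3b1 MO libraries differed less than its FPKM, at 758, 896 and 730 in the same order. The gene si:ch211-225b11.1 had 3.37, 3.29 and 3.58 FPKM in sf3b1 MO + As2S2, 10.1, 9.90 and 9.08 FPKM in sf3b1 MO, and 3.66, 3.47 and 3.43 FPKM in control MO. The As2S2 and control values overlapped (-0.03, 95% interval -0.19 to 0.12, limma adjusted p = 0.67), and after centring each library the gene was called above control MO (0.26, limma adjusted p = 0.0091).

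Chosen after their values were seen, cry-dash, neil1 and ddb2 went below control MO with As2S2. They are among the 10 of 92 high members called below control MO, beside 48.5% of all genes tested (limma). The cryptochrome-related photolyase gene cry-dash had 2.63 ± 0.309 FPKM in sf3b1 MO + As2S2, 16.3 ± 0.748 FPKM in sf3b1 MO and 7.34 ± 0.527 FPKM in control MO (SD, n = 3 each; log2 difference of As2S2 and control MO -1.20, SE 0.08, limma adjusted p = 1.4e-06). The DNA glycosylase gene neil1 had 4.25 ± 0.531, 15.1 ± 1.15 and 6.95 ± 0.548 FPKM in the same groups (-0.60, SE 0.09, limma adjusted p = 0.00035). The gene ddb2, whose product recognizes ultraviolet damage, had 1.55 ± 0.270, 7.08 ± 0.761 and 2.98 ± 0.495 FPKM (-0.64, SE 0.12, limma adjusted p = 0.0014). In each of these genes sf3b1 MO was the highest group, which the choice fixed, and sf3b1 MO + As2S2 the lowest. At the other end, tnfrsf14, a receptor gene of the tumour necrosis factor family, was listed at 0 in all control MO libraries, with 0.244, 0.0295 and 0.212 FPKM in sf3b1 MO + As2S2 and 6.29, 5.22 and 6.43 FPKM in sf3b1 MO.

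The assembled transcripts carry no gene name in the table, and no role is given to them. The 54 high ones came from 48 loci. Assembled transcripts made up 39.2% of the 355 rows that were at least 2-fold higher in sf3b1 MO than in control MO with libraries apart, and 32.3% of the 263 of these that were not members. On the low side they made up 13.3% of 536 rows and 12.7% of the 505 that were not members. Of the 355 higher rows 25.9% were members, and of the 536 lower rows 5.78%. Over all genes tested, 44.5% were lower and 17.3% higher with As2S2 than in sf3b1 MO (limma). The difference between the shares of members is therefore not read as a result about them. The numbers of members depend on scale, and the shares of members were not computed on another scale. With each library scaled to the same median FPKM there were 69 high and 39 low members, in place of 92 and 31.

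**Figure D4:**
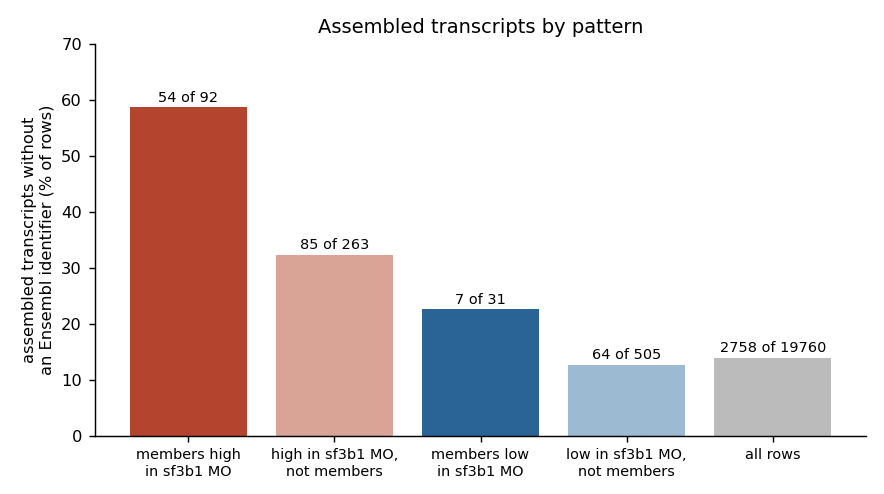
Bars give the share of rows that are assembled transcripts without an Ensembl identifier, in percent, for members, for other rows changed at least 2-fold in sf3b1 MO against control MO with libraries apart, and for all rows. The numbers above the bars are the counts: 54 of 92 high members and 7 of 31 low members were assembled, against 2758 of 19760 rows.

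Among the sets plotted, the high members had the largest share of assembled transcripts. Whether the way such rows were assembled and quantified bears on this share was not tested. The most abundant high member was an assembled transcript, MSTRG.43814.2, with 62.3, 59.05 and 60.6 FPKM in sf3b1 MO + As2S2, 137, 136 and 131 FPKM in sf3b1 MO, and 2.84, 2.70 and 3.24 FPKM in control MO. It came down by 1.14 log2 units with As2S2 and remained far above control MO (log2 difference 3.98, SE 0.05, limma adjusted p = 2.7e-11), further than any other member. The next in level, MSTRG.39700.2, had 52.5, 64.2 and 0 FPKM in sf3b1 MO + As2S2, 102.5, 95.8 and 98.5 FPKM in sf3b1 MO, and 30.75, 31.6 and 32.3 FPKM in control MO. A single As2S2 library at 0 decided its direction against control MO: the difference was -1.10 with all libraries (limma adjusted p = 0.47) and 0.86 without replicate 3 of sf3b1 MO + As2S2. Such gaps were not rare, and the median SD within groups on the log2(FPKM + 1) scale was 0.35 in high and 0.45 in low assembled members, against 0.18 and 0.15 in annotated members and 0.12 over all genes tested. Why single libraries were at 0 was not tested.

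Of the loci, 6 had more than 1 member row, 14 rows in all, and 2 of them had members in both directions. Transcript MSTRG.38598.3 was high in sf3b1 MO, with 0, 2.10 and 0.252 FPKM in sf3b1 MO + As2S2, 3.60, 4.93 and 3.74 FPKM in sf3b1 MO, and 0 in all control MO libraries. MSTRG.38598.5 of the same locus was low, with 8.60, 7.04 and 9.31 FPKM in sf3b1 MO + As2S2, 3.91, 1.07 and 4.27 FPKM in sf3b1 MO, and 6.60, 7.62 and 7.40 FPKM in control MO. As a share of their sum, MSTRG.38598.3 made up 8.54% ± 12.6 in sf3b1 MO + As2S2, 58.9% ± 20.1 in sf3b1 MO and 0% in control MO (SD, n = 3 each). At the other locus, MSTRG.38021.3 made up 2.50% ± 2.41 of its sum with MSTRG.38021.1 in sf3b1 MO + As2S2, 87.6% ± 1.31 in sf3b1 MO and 29.4% ± 44.9 in control MO, where 1 library stood at 81.0% and the others at 7.03% and 0%. Because 1 transcript of each locus was chosen as high and the other as low, the larger share of the high one in sf3b1 MO restates the choice. The control libraries of MSTRG.38021 differed widely among themselves. FPKM of transcripts that share exons rest on how reads were divided among them, and the sources used here do not say how that was done.

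With As2S2 the members as a whole lay on both sides of control MO. Of the 92 high members, 19 were above control MO, 10 below and 63 not called (limma, adjusted p under 0.05), which is 31.5% called, and of the 31 low members 6 were above, 8 below and 17 not called, which is 45.2% called. In this comparison 68% of all 18013 genes tested were called, 19.5% higher and 48.5% lower. All members passed the filter of 1 FPKM in 3 libraries, but some of them only through the group or groups where they were high. A gene not called need not be equal: the 95% interval lay wholly within 0.5 log2 units of zero in 24 of the 63 and in 5 of the 17. Members near 0 FPKM in both groups, such as tnfrsf14, had a difference near 0 on this scale by construction, so the lower share called among members is not a result about them. The libraries of sf3b1 MO + As2S2 lay wholly above control MO in 23 high and 6 low members, where 20.1% of all rows did so, and wholly below in 12 and 8, where 50% of all rows did so.

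**Figure D5:**
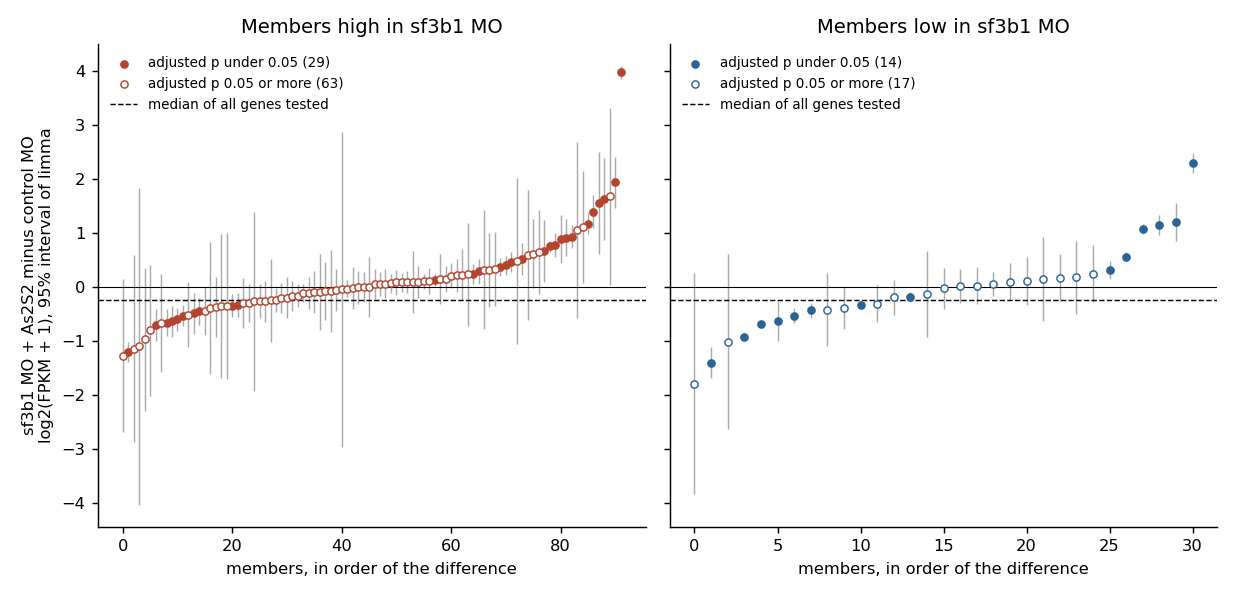
Each point is a member, in order of its difference of sf3b1 MO + As2S2 and control MO in log2(FPKM + 1), with the 95% interval of limma. Filled points were called at an adjusted p under 0.05 (29 of 92 high and 14 of 31 low members), and the dashed line marks the median of all genes tested, -0.25.

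Level and scale both bear on this count. The median gene differed by -0.25 between sf3b1 MO + As2S2 and control MO, and by -0.20 between sf3b1 MO + As2S2 and sf3b1 MO. After centring each library on its median, 37 high members were above control MO and 6 below, and 7 low members above and 4 below, beside 34.8% of all genes higher and 28% lower. Among the 27 members of at least 10 FPKM over the 9 libraries, a limit chosen after the values were seen, 19 were called, or 70.4%, beside 76.1% of all genes of that level (29.5% higher and 46.7% lower). Of the 14 such high members 8 were above control MO and none below, and of the 13 low members 4 were above and 7 below. The mean over the 9 libraries includes sf3b1 MO, where high members are high by choice. For example, gngt2a had means of 7.45 FPKM in sf3b1 MO + As2S2, 23.6 FPKM in sf3b1 MO and 3.42 FPKM in control MO. These shares are therefore not a result about the members either. The plot of differences shows long intervals for many of the members that were not called. Among members of that level, cyt1l and fthl31 stayed between sf3b1 MO and control MO, fthl28 overlapped control MO, and serpinh1b passed beyond it.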

How the data were processed

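All values came from 1 deposited table of 21109 genes and transcripts. The authors give raw counts for 6 libraries, under headers wt and ko. These were read as control MO and sf3b1 MO, since the deviations of counts from their group mean followed those of the same-numbered FPKM library (Spearman correlation at least 0.95). The FPKM columns read as control MO are headed wt too, so this match does not show that wt stands for the control morpholino. FPKM values are deposited for all 9 libraries, the unit being read per the file headers from a column of mean FPKM, which is on the log2 scale in the deposited table. GRCz11, fastp 0.22.0 and DESeq2 are named per the submitters' processing notes. Aligner, assembler and counter: not given in the sources used here. The p-values and log2 ratios of ko over wt that the authors deposited were not used. Control MO and sf3b1 MO values exist for 20723 rows and As2S2 values for 20146, and whether all 9 were normalized together is not stated.

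FPKM were tested with limma 3.58.1 in R 4.3.3 on log2(FPKM + 1), with group means and a variance trend, over 18013 genes of at least 1 FPKM in 3 libraries. Counts of 6 libraries were tested with edgeR 4.0.16 (quasi-likelihood, TMM, 20723 genes). The written design allowed for counts in all 9 libraries; there were 6. P-values are Benjamini-Hochberg adjusted over all genes tested, with 0.05 as threshold. Both procedures were tested on simulated data in which few genes changed and the rest did not shift. Those simulations do not bear on the scale of the libraries. Differences with SE are limma coefficients, and intervals are 95%.

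The members, the 21 gene lists and the tests were chosen with earlier results of these data known. Named were, in each direction, the 12 members with a symbol and at least 4 FPKM on average whose smaller log2 ratio was largest, the 3 most abundant, all members in a list, and the genes nearest the 2-fold limit. Other genes named are said to be chosen after their values were seen or stand beside a list or paralog. RefSeq's GRCz12tu gene order was used for neighbours only; 54 of 62 annotated members matched by symbol. Of the 21 lists, 5 held a member and 16 held none. Alternatives tried were other limits, pseudocounts, filters and scalings, DESeq2 1.42.0, a block by replicate number and leaving out each library.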

Additional observations from a re-analysis of the deposited data

How the results depend on the processing

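The number of members, 123, became 358 with a pseudocount of 0.1 in the rule, 662 with a factor of 1.5 and 18 with a factor of 3. It was 147 with no condition on the range, 120 with counts required as well, and 120 to 137 with 1 library left out. After scaling each library to the same median it was 108, with 69 high and 39 low (93 shared). Members called in sf3b1 MO + As2S2 against control MO numbered 43, and 41 to 47 with 1 library left out. After centring, 37 high members were above control MO in place of 19, 6 below in place of 10, and 4 low members below in place of 8. Among 32 named members under 13 alternatives each, 391 of 416 values kept direction and call, and 9 turned sign. After centring these were si:ch211-225b11.1 (0.26), rpl10 (0.10), fthl28 (0.29) and MSTRG.46941.2 (0.17). With 1 library left out, MSTRG.39700.2 ranged from -2.15 to 0.86, 0.86 being without replicate 3 of sf3b1 MO + As2S2, fthl28 from -0.13 to 0.13, sox9a from -0.0049 to 0.15 and anxa1c from -0.048 to 0.081. The cause was not tested.

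Replicate numbers did not pair the samples: deviations of same-numbered libraries correlated at -0.07 to 0.04. With a block by number, 42 members were called. Over all genes the block gave 12053 calls in place of 12249 for sf3b1 MO + As2S2 against control MO, 10926 in place of 11139 against sf3b1 MO, and 10220 in place of 10592 for sf3b1 MO against control MO by counts. DESeq2 called 10185 genes in that last comparison. Depth limits the precision of members at low level, and it is unknown for the As2S2 libraries.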

Other observations

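A low member named by identifier alone, ENSDARG00000096389, was chosen after its values were seen: it had 13.8, 30.8 and 14.9 FPKM in sf3b1 MO + As2S2, 4.34, 3.15 and 4.59 FPKM in sf3b1 MO, and 162, 9.96 and 173 FPKM in control MO, where 1 library was far below the others. The assembled transcript MSTRG.4125.37 had 7.91, 0 and 0 FPKM in sf3b1 MO + As2S2, 34.5, 29.2 and 54.3 FPKM in sf3b1 MO, and 0 in all control MO libraries. Another row of this locus, MSTRG.4125.26, no member, varied widely within groups. It had 1.05, 24.5 and 25.3 FPKM in sf3b1 MO + As2S2, 24.4, 28.8 and 1.15 FPKM in sf3b1 MO, and 29.8, 30.1 and 30.1 FPKM in control MO. How reads were divided among the rows of this locus was not tested. The conditions applied with another group standing apart gave 274 rows high and 806 low in sf3b1 MO + As2S2, and 397 high and 163 low in control MO, with the same exclusions by name. Assembled transcripts made up 15.7% and 13.5% of the As2S2 rows and 11.1% and 29.5% of the control rows.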
